A study of Mus musculus with 24 samples.

Results

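The genes described here are those of BDNF and its signalling partners: the ligand genes Bdnf and Ntf3, the receptor genes Ntrk2, Ntrk3 and Ngfr, the sorting receptor genes Sort1 and Sorcs1, and Vgf and Nrn1, which encode secreted or surface proteins induced by neurotrophins. They were taken by symbol from the table of normalized counts of the prefrontal cortex (PFC), where 7 of the 9 were among the 14074 genes. Ntf3 and Ngfr were not analysed here. The table covers 24 libraries, each from 1 male C57BL/6 mouse aged 10 to 12 weeks, in 6 groups of 4. Stressed animals, named PS where their coping was passive and AS where it was active, had lived through 30 days of social defeat by aggressive CD1 males and had been separated by clustering of their behaviour in non-aggressive contact, and control animals had not been defeated and were housed individually for 5 days. Within control, PS and AS, 4 mice received saline and 4 received 2 mg/kg of the synthetic glucocorticoid dexamethasone (DEX) by intraperitoneal injection at 24 h after the last stress session, and the tissue was taken 6 h later. All groups therefore share an injection, and a phenotype is a class made from behaviour, not a genotype.

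BDNF is made as a precursor, sorted into dense core vesicles, cleaved and released from neurons in an activity-dependent way, after which the mature form binds the tyrosine kinase TrkB (Ntrk2) and drives the Ras/MAPK, PI3K and phospholipase C relays. NT-3 acts through TrkC (Ntrk3), and the uncleaved precursors bind p75 (Ngfr) together with sortilin (Sort1). In the cortex the system is known for its part in synaptic plasticity, and both chronic stress and glucocorticoids are known to act on Bdnf transcription, which starts from several alternative 5' exons.

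Bdnf has 7 start sites in the RefSeq table (GRCm38.p6), whereas Ntrk2 and Sorcs1 have 1 each there, so that 3 of the 7 measured genes were matched to a start site. The upstream 250 bases of each start site were searched on both strands for the half-site of the glucocorticoid receptor (AGAACA), the core of its palindromic site (ACANNNTGT), the cAMP response element (TGACGTCA), its half-site (TGACG) and the E-box (CACGTG). Shown are 4 of the Bdnf windows, written 5' to 3' on the plus strand of chromosome 2: the one at the 5' end of the gene and those that hold a palindrome core or a cAMP half-site, with the matched letters in capitals.

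Bdnf start site 1, chr2:109674450-109674699: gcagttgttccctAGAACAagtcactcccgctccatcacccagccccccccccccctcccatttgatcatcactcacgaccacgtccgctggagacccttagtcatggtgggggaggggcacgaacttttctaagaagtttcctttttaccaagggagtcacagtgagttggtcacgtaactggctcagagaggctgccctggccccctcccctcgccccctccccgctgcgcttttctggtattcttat

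Bdnf start site 3, chr2:109692186-109692435: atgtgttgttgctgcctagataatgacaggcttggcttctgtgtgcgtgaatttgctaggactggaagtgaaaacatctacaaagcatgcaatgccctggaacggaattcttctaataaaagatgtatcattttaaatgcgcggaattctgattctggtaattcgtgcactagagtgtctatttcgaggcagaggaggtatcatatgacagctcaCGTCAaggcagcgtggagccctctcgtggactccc

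Bdnf start site 5, chr2:109694159-109694408: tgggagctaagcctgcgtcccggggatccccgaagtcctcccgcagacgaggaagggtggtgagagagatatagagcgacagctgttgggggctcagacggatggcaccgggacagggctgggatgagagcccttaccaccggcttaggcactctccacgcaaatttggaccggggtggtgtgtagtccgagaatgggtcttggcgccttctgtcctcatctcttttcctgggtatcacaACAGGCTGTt

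Bdnf start site 6, chr2:109709133-109709382: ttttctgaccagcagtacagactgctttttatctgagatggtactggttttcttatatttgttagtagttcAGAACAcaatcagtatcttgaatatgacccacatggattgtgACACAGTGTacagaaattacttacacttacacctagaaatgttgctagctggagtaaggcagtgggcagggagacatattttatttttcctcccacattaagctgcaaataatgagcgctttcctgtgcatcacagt

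The receptor half-site lies 237 bases before start site 1, 240 before start site 2 and 179 before start site 6. The palindrome core lies 10 bases before start site 5 as ACAGGCTGT and 137 bases before start site 6 as ACACAGTGT. The cAMP half-site was found once, on the minus strand, 35 bases before start site 3. Start sites 4 and 7 of Bdnf, and the windows of Ntrk2 and Sorcs1, held none of the 5 motifs. Over 32851 windows of the same length, 16.1% held the receptor half-site, 5.84% the palindrome core, 17.8% the cAMP half-site, 1.55% the whole cAMP element, which contains the half-site, and 6.02% the E-box. The deposited counts are summed over each gene, so the start sites of Bdnf cannot be told apart in any value given here.

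Bdnf lies on chromosome 2 (mm10, 109674700 to 109727007, plus strand), Ntrk2 on chromosome 13 (58806569 to 59133970, plus), Ntrk3 on chromosome 7 (78175959 to 78738012, minus), Sort1 on chromosome 3 (108284082 to 108361511, plus), Sorcs1 on chromosome 19 (50143299 to 50678646, minus), Vgf on chromosome 5 (137026392 to 137033351, plus) and Nrn1 on chromosome 13 (36725361 to 36735131, minus). Ntrk3 overlaps Gm9885 and Nrn1 overlaps Fars2 on the opposite strand, and both partners are in the table. The libraries were strand-specific, but the strand setting of the counting is not given in the sources used here, so reads shared by these pairs could be split either way.

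Each library held between 21121869 and 59439645 recovered reads, with medians of 34242531.5 and 37876626 in the saline and DEX groups of AS and between 22869703 and 24187702 in the other 4 groups. The values of 4 libraries lay farthest from their own groups, with a median absolute log2 deviation above 0.15: DEX-treated AS mouse 60, DEX-treated PS mouse 34, saline-treated AS mouse 44 and DEX-treated control mouse 101. The glucocorticoid receptor targets Fkbp5, Tsc22d3 and Sgk1 separated every DEX group from its saline group without overlap, while the groups of another target, Per1, overlapped in all 3 phenotypes and passed in PS alone (0.30, adjusted p = 0.0403). The log2 fold change of Fkbp5 was 2.26 for control mice, 2.00 for PS and 1.91 for AS. Of 70 listed markers of cortical cell types and neighbouring tissues, the 66 present in the table had reads in every library, among them the defining markers of pyramidal neurons. In bulk tissue, fewer cells of a type and less RNA per cell cannot be told apart.

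The measured genes span a wide range of levels. Per kilobase of exon and averaged over the 24 libraries, the normalized count of Nrn1 was 3343 ± 346 (SD) and that of Vgf 3338 ± 352, at percentiles 98.24 and 98.23 of the genes with a length. Sort1 followed with 2223 ± 229, Ntrk2 with 944 ± 87.6, Ntrk3 with 223 ± 24.7, Sorcs1 with 177 ± 28.9 and Bdnf, the lowest, with 138 ± 28.9. Nrn1 and Vgf differed by less than their spread over libraries, and the ranges of Ntrk3 (172 to 257), Sorcs1 (128 to 221) and Bdnf (96.4 to 187) overlapped, while Sort1 and Ntrk2 stood clear of their neighbours below. Bdnf varied most, its highest library being 1.94 times its lowest, against 1.46 for Ntrk2.

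DEX lowered Bdnf in each of the 3 phenotypes. In saline-treated control mice 106, 107, 109 and 117 the normalized counts were 1042.1, 1026.7, 962.9 and 675.0, and in DEX-treated control mice 101, 108, 112 and 122 they were 649.0, 670.8, 599.5 and 803.9. In PS, saline-treated mice 2, 28, 62 and 68 had 974.7, 1159.9, 924.8 and 1160.5, and DEX-treated mice 6, 34, 52 and 56 had 724.0, 703.2, 684.7 and 894.5. In AS, saline-treated mice 8, 14, 40 and 44 had 912.8, 998.7, 928.5 and 1162.3, and DEX-treated mice 38, 42, 60 and 72 had 605.9, 723.3, 802.5 and 757.7. All saline-treated mice therefore lay above all DEX-treated mice within PS and within AS, whereas in control animals mouse 117 lay among the DEX-treated mice. These values rest on 497 to 2479 recovered reads per library.

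**Figure D1:**
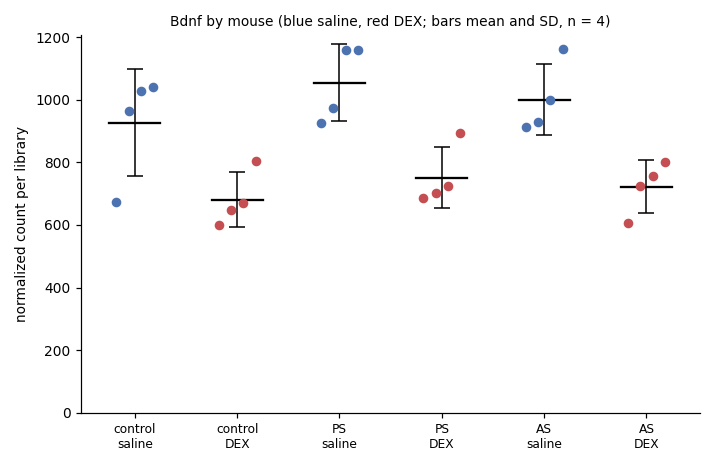
Normalized counts of Bdnf, 1 point per mouse, in the 6 groups (vertical axis from 0; blue saline, red DEX; black lines, mean and SD, n = 4). The 4 DEX-treated mice lie below the 4 saline-treated mice in PS and in AS, while 1 saline-treated control mouse, at 675.0, lies among the DEX-treated controls.

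The mean normalized counts of saline and DEX groups were 927 ± 171 and 681 ± 87.3 for control animals (SD, n = 4), 1055 ± 123 and 752 ± 96.6 for PS, and 1001 ± 114 and 722 ± 84.1 for AS. Ordered by level, the groups were PS, AS and control both with saline and with DEX, and neighbours in that order differed by less than the SD of either. The fall was 0.43 on the log2 scale in control (log2 fold change -0.43, SE 0.13, limma with Benjamini-Hochberg adjustment over all genes, adjusted p = 0.0587), -0.49 in PS (SE 0.13, adjusted p = 0.0304) and -0.47 in AS (SE 0.13, adjusted p = 0.0300). Averaged over the phenotypes the log2 fold change was -0.46 (SE 0.07, adjusted p = 8.02e-05), which is a change of -27.5% with a 95% interval from -34.8% to -19.3%. At the threshold used (adjusted p under 0.1), 1 of the 7 genes passed in each of control, PS and AS, where 6.49%, 5.36% and 8.77% of all genes did, and 2 of 7 passed in the average, where 15.5% of all genes did. Bdnf was that gene in each phenotype, and it ranked 371st of 14074 by p in the average.

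Within a single phenotype the call for Bdnf depended on single mice. The control call was lost when any of saline-treated mice 106, 107 or 109 or of DEX-treated mice 101, 108 or 112 was left out (adjusted p 0.122 to 0.195), and without mouse 117 the log2 fold change was -0.58 (adjusted p = 0.0044). The PS call was lost without saline-treated mouse 28 (adjusted p = 0.109) and the AS call without DEX-treated mouse 38 (adjusted p = 0.108), while the average stayed past the threshold in all 33 alternatives, between -0.51 and -0.44. Without the 4 libraries that stand apart, Bdnf was at -0.41 in control (adjusted p = 0.0894), -0.46 in PS (adjusted p = 0.0549) and -0.45 in AS (adjusted p = 0.0456).

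The size of the Bdnf response did not differ detectably between phenotypes. The response in PS minus that in control was -0.06 (95% interval -0.43 to 0.32, adjusted p = 0.958) and that in AS minus control was -0.04 (-0.42 to 0.34, adjusted p = 0.959), so differences of up to about this size in either direction lie within the intervals. Stress itself gave small positive differences in saline-treated mice, 0.20 in PS (SE 0.13, adjusted p = 0.533) and 0.13 in AS (SE 0.13, adjusted p = 0.730), with overlapping groups. Both of these comparisons use the same 4 saline-treated controls, and without control mouse 117 the values were 0.06 in PS and -0.02 in AS. With DEX, Bdnf was 0.14 higher in PS than in control (adjusted p = 0.658) and 0.09 higher in AS (adjusted p = 0.792).

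Markers of other cells moved in some of the same comparisons. The summed normalized count of 5 endothelial markers was 4190 to 6419 in saline-treated and 2737 to 4050 in DEX-treated AS mice, without overlap, and 4 of the 5 markers fell, where 8.77% of all genes passed. In PS the ranges were 4150 to 5836 and 2519 to 5337 and overlapped, and 1 of 5 passed, where 5.36% of all genes did. In control animals they were 4232 to 5817 and 4175 to 6469, and none of the 5 passed the test, where 6.49% of all genes did. Among 6 pyramidal neuron markers, 1 (Neurod6) fell in control, none passed in PS and 1 (Tbr1) rose in AS. In AS, 3 of 5 mural markers also fell and 2 of 6 oligodendrocyte markers rose. The part of these shifts in the Bdnf values was not tested.

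Ntrk2 (TrkB, present as a full-length kinase form in neurons and a truncated form in astrocytes) did not pass the test in any comparison. Its group means lay between 17360 ± 2060 in saline-treated AS and 19390 ± 1290 in DEX-treated control animals. The DEX response was 0.07 in control, 0.00 in PS and 0.09 in AS, and the average was 0.05 with a 95% interval from -0.06 to 0.17 (adjusted p = 0.683). The 2 lowest libraries were saline-treated AS mouse 44 with 14273.3 and DEX-treated AS mouse 60 with 14097.2, while the other 22 ran from 16287.2 to 20610.2. Both belong to the 4 libraries that stand apart. Without those 4 the average for Ntrk2 was 0.10 (adjusted p = 0.0396), the 1 of 33 alternatives in which it passed. Each of the 4 had the lowest Ntrk2 count of its group, and mice 101, 34 and 60 among them were DEX-treated. The 2 forms of TrkB are summed in these counts.

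Ntrk3 (TrkC, the receptor of NT-3) had higher counts in DEX-treated than in saline-treated controls without passing the threshold. Saline-treated control mice 106, 107, 109 and 117 had 6379.3, 6628.7, 7330.9 and 5193.7, and DEX-treated mice 101, 108, 112 and 122 had 7196.8, 7685.2, 7440.8 and 7541.1. Only mouse 109 of the saline group reached into the DEX range. The log2 fold change was 0.24 (SE 0.11, adjusted p = 0.270) and 0.14 without saline-treated mouse 117, beside 0.07 in PS and 0.09 in AS, and the average was 0.13 (SE 0.06, adjusted p = 0.202). The average passed in 2 alternatives, without DEX-treated PS mouse 34 and without the 4 libraries.

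Sort1 (sortilin, which binds proneurotrophins and carries BDNF into the regulated secretory pathway) did not pass in any comparison. Its group means ran from 15690 ± 1770 in saline-treated AS to 17470 ± 2040 in saline-treated control animals, and the average DEX response was 0.06 (95% interval -0.07 to 0.19, adjusted p = 0.687). In AS against control with saline it was -0.15 (SE 0.11, adjusted p = 0.604).

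Sorcs1 (a sorting receptor of the same Vps10p family, which directs synaptic membrane proteins) was the second of the 7 genes to pass in the DEX average. In saline-treated AS mice 8, 14, 40 and 44 its normalized counts were 1172.6, 1314.7, 1151.1 and 1272.4, and in DEX-treated AS mice 38, 42, 60 and 72 they were 1676.8, 1808.9, 1399.4 and 1541.8. In PS they were 1221.9, 1299.3, 1468.4 and 1579.9 with saline (mice 2, 28, 62 and 68) and 1798.3, 1363.3, 1861.1 and 1701.9 with DEX (mice 6, 34, 52 and 56). In control animals they were 1479.4, 1543.1, 1804.7 and 1266.7 with saline (mice 106, 107, 109 and 117) and 1082.6, 1730.7, 1855.7 and 1377.9 with DEX (mice 101, 108, 112 and 122). The groups did not overlap in AS, overlapped through DEX-treated mouse 34 in PS, and overlapped widely in control animals.

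The log2 fold change of Sorcs1 after DEX was 0.38 in AS (SE 0.14, adjusted p = 0.107), 0.27 in PS (SE 0.14, adjusted p = 0.405) and -0.03 in control (adjusted p = 0.957). The average was 0.21 (SE 0.08, adjusted p = 0.0969), a call that was lost in 18 of 33 alternatives. Among them were quantile normalization (adjusted p = 0.104) and library size as a covariate (adjusted p = 0.110). Without the 4 libraries the adjusted p was 0.00126. That removal, added after seeing the data, took out the DEX-treated mouse with the lowest Sorcs1 in each phenotype (mice 101, 34 and 60). The AS response passed in 11 of 33 alternatives. The response in AS minus that in control was 0.41 (95% interval 0.02 to 0.81, adjusted p = 0.345) and did not pass. Without DEX-treated control mouse 101, the control response was 0.12 and this difference 0.26. With saline, Sorcs1 was lower in AS than in control by -0.30 (SE 0.14, adjusted p = 0.424) and in PS by -0.13 (adjusted p = 0.738).

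The summed count of 4 deep layer markers (Fezf2, Bcl11b, Tle4 and Etv1) also varied between these groups. The list held 6, of which Foxp2 and Sulf1 were not among the measured genes. The sum was 3493 to 5752 with saline and 4762 to 7074 with DEX in AS, 4559 to 5278 and 5662 to 6788 in PS, and 5407 to 7145 and 3378 to 6419 in control animals. Bcl11b was the 1 of the 4 to pass in PS and in AS, where it rose and where 5.36% and 8.77% of all genes passed. None of the 4 passed in control, where 6.49% of all genes did. The part of these markers in the Sorcs1 values was not tested.

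Vgf (a neuropeptide precursor of dense core vesicles that neurotrophins induce) was lower in both stressed groups with saline, without passing the threshold. Saline-treated control mice 106, 107, 109 and 117 had 12681.6, 11440.1, 10444.8 and 9963.6. Saline-treated PS mice 2, 28, 62 and 68 had 8195.1, 9143.7, 9373.3 and 10039.7, and saline-treated AS mice 8, 14, 40 and 44 had 8948.7, 9617.9, 8289.5 and 10588.9. The lowest control mouse lay under the highest mouse of either stressed group, so both pairs of groups overlapped.

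The log2 difference of Vgf from control was -0.27 in PS (SE 0.09, adjusted p = 0.147) and -0.25 in AS (SE 0.09, adjusted p = 0.302). None of the 7 genes passed in these comparisons by limma, where 1.51% and 0.156% of all genes did. At an unadjusted p under 0.05 there was 1 (Vgf) in PS, beside 1850 of all 14074 genes. In AS there were 2 (Vgf and Sorcs1), beside 1548 of all genes. Vgf passed in PS by the DESeq2 Wald test on recovered reads (adjusted p = 0.0784) and did not by edgeR (adjusted p = 0.163). It passed by limma in both stressed groups without the 4 libraries (adjusted p = 0.0315 and 0.0759), a removal added after seeing the data. That removal took out AS mouse 44, the highest of its group for Vgf, and no saline-treated PS or control mouse. DEX gave -0.15 in control (SE 0.09, adjusted p = 0.444), 0.18 in PS (SE 0.09, adjusted p = 0.366) and 0.02 in AS (adjusted p = 0.954). The response in PS minus that in control was 0.33 (95% interval 0.08 to 0.58, adjusted p = 0.385), which also rests on the 4 saline-treated controls.

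Nrn1 (neuritin, a surface-anchored protein that promotes neurite and synapse growth) did not pass in any comparison. Its group means ran from 6925 ± 845 in saline-treated control to 8030 ± 944 in DEX-treated PS animals. The average DEX response was 0.09 (95% interval -0.03 to 0.21, adjusted p = 0.429), and with saline PS was 0.15 above control (SE 0.10, adjusted p = 0.543).

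**Figure D2:**
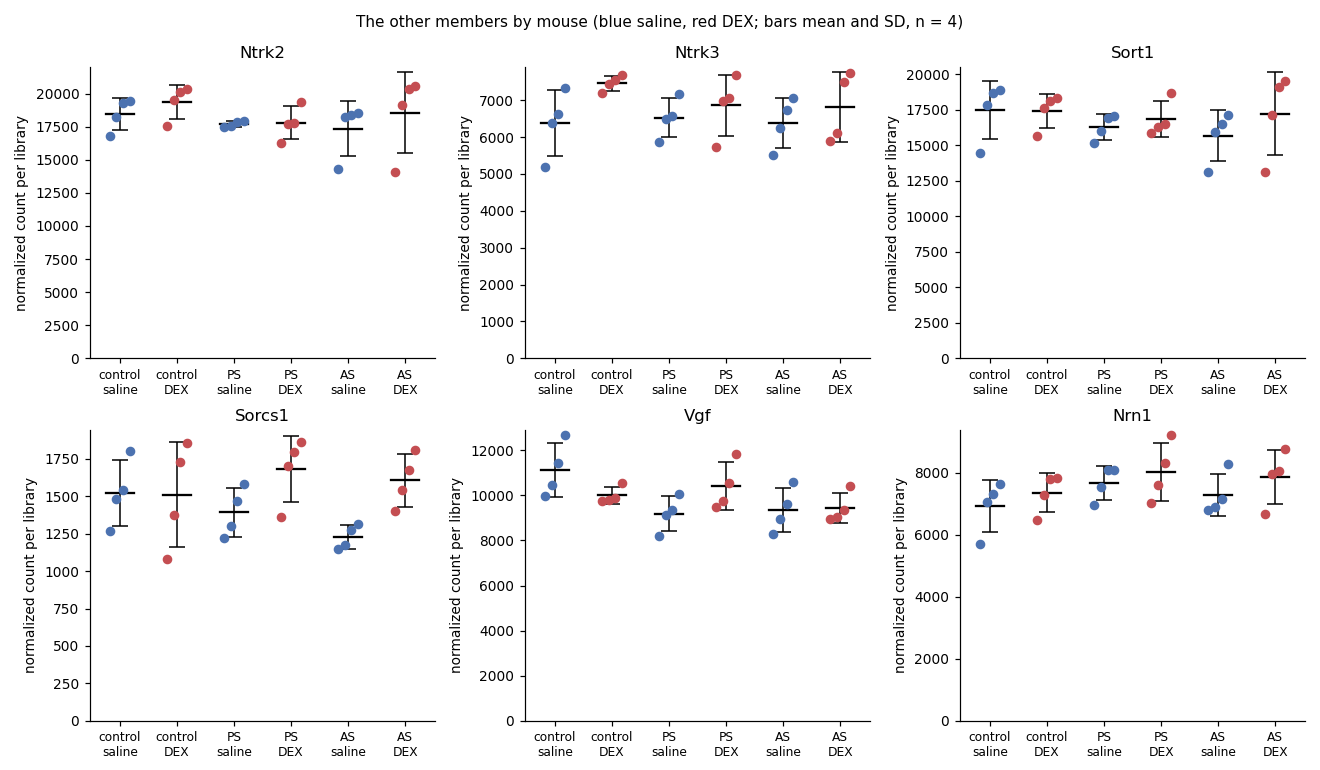
Normalized counts of Ntrk2, Ntrk3, Sort1, Sorcs1, Vgf and Nrn1, 1 point per mouse, in the 6 groups (vertical axes from 0, scaled per gene; blue saline, red DEX; black lines, mean and SD, n = 4). The saline and DEX groups of AS do not overlap for Sorcs1, and 1 saline-treated AS mouse, at 14273.3 for Ntrk2, lies far below the other 3.

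The remaining comparisons called none of the 7 genes by limma. AS and PS with saline differed in 0% of all genes, with 671 at an unadjusted p under 0.05, 0 calls by edgeR and 11 by DESeq2, and the 7 genes differed by between -0.18 (Sorcs1) and 0.02 (Vgf). AS and PS with DEX also differed in 0%, with 580 at an unadjusted p under 0.05, 0 calls by edgeR and 4 by DESeq2, and the 7 genes lay between -0.14 (Vgf) and 0.05 (Ntrk2). With DEX, 0.199% of all genes passed between PS and control and 0.867% between AS and control. The DEX response differed in 0% of genes between PS and control (1404 at an unadjusted p under 0.05, 0 by edgeR, 23 by DESeq2), in 0.348% between AS and control (49 genes, 77 by edgeR, 439 by DESeq2, and 4 to 686 when a single library was left out), and in 0% between AS and PS (344 at an unadjusted p under 0.05, 0 by edgeR and DESeq2). None of the 7 genes was at an unadjusted p under 0.05 in the AS against PS comparisons. None was in the comparisons of stressed with control animals after DEX, where 1975 of all 14074 genes were in PS and 1891 in AS. Vgf was under 0.05 in the PS interaction with control, beside 1404 of all genes. Sorcs1 was in the AS interaction with control, beside 1902 of all genes.

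**Figure D3:**
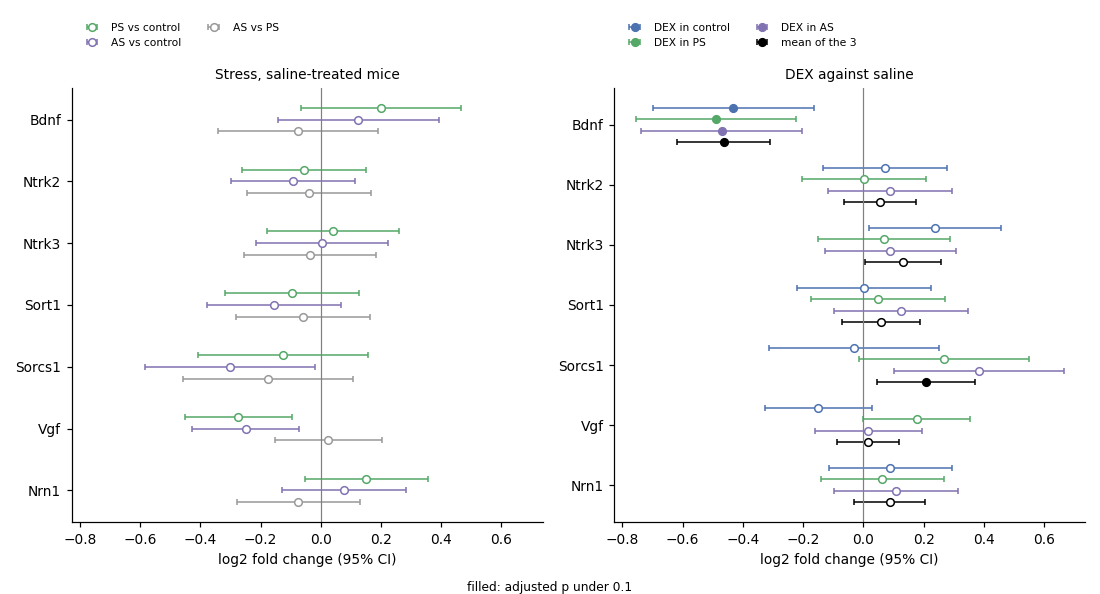
Log2 fold changes with 95% intervals of the 7 genes under stress in saline-treated mice (left) and under DEX (right), with filled points for an adjusted p under 0.1. Bdnf is filled and below 0 in control, PS, AS and their mean, from -0.43 to -0.49, Sorcs1 is filled in the mean of the 3 phenotypes at 0.21, and no point is filled under stress.

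Genes also varied together between mice of one group. After each group's mean was removed, Ntrk2 and Sort1 had r = 0.94 over the 24 libraries, Ntrk3 and Sort1 0.81, Ntrk2 and Ntrk3 0.74, and Vgf and Nrn1 0.76. Bdnf had r = 0.57 with Nrn1 and 0.54 with Vgf but -0.07 with Ntrk2. Without the 4 libraries that stand apart, the r of Bdnf with Ntrk2 was 0.585 (n = 20), and that of Ntrk2 with Sort1 was 0.905. These values describe the libraries, which share depth, dissection and size factors between genes, and they were not tested.

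**Figure D4:**
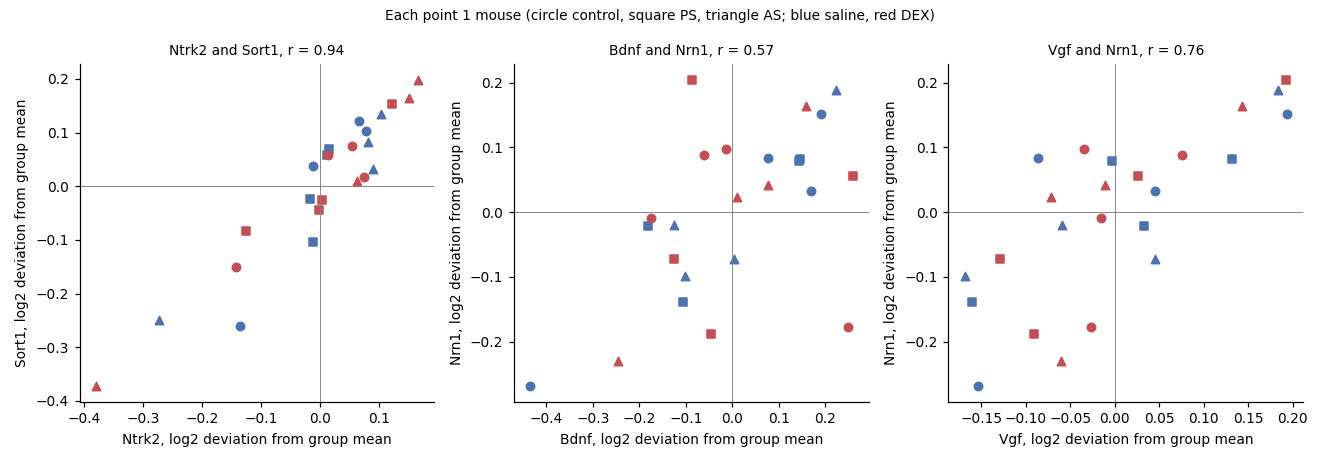
Log2 deviations from the group mean, 1 point per mouse (24), for Ntrk2 and Sort1, Bdnf and Nrn1, and Vgf and Nrn1 (circles control, squares PS, triangles AS; blue saline, red DEX). Ntrk2 and Sort1 lie close to a line, with r = 0.94, while Bdnf and Nrn1 scatter more widely, with r = 0.57.

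Over 12017 other genes whose mean normalized count reached 100, the patterns most like that of Bdnf across the 24 libraries were those of Ccnd1 (r = 0.85), Trpc6 (0.82), Ak4 (0.82), Inhba (0.82) and Lipg (0.81), and the most opposed were Ksr1 (-0.86), Mro (-0.84) and Sh2b2 (-0.84). Of these, Ccnd1 encodes cyclin D1, Inhba a subunit of activin, Ksr1 a scaffold of the MAPK cascade and Sh2b2 an adaptor of receptor tyrosine kinases. The former all had negative and the latter positive DEX averages, such as -0.73 for Inhba (adjusted p = 6.82e-07) and 0.61 for Ksr1 (adjusted p = 1.34e-08), so the DEX response of these libraries is part of each r. With group means removed, the nearest were Dusp6 (0.75), Dnajc21 (0.73), Car8 (0.68), Egr1 (0.68) and mt-Atp6 (0.68), of which Dusp6 and Egr1 are induced by MAPK activity. Dusp6 and Egr1 did not pass in the DEX average (0.06 and 0.13, adjusted p = 0.623 and 0.389).

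The genes around BDNF signalling were followed by list, and the counts are set against the 15.5% of all genes that passed in the DEX average. Of 9 other ligands and receptors, 2 fell, and the list median was -0.05. These were the GDNF family receptor Gfra1 (-0.21, SE 0.05, adjusted p = 0.00308) and the Nogo receptor partner Lingo1 (-0.15, SE 0.05, adjusted p = 0.0460). Gfra1 passed in PS and AS but was at -0.04 in control (adjusted p = 0.906), and Lingo1 passed in no single phenotype. Of 12 genes of proneurotrophin and propeptide processing, 3 rose and none fell, with a median of 0.03. They were Plat (tissue plasminogen activator, 0.38, SE 0.06, adjusted p = 6.21e-05) and the proprotein convertases Pcsk7 (0.24, adjusted p = 0.000810) and Furin (0.16, adjusted p = 0.0147). Plat rose in control (0.59) and PS (0.35) animals and had 0.20 in AS, where it did not pass (adjusted p = 0.331). Pcsk7 passed in control and PS and had 0.10 in AS (adjusted p = 0.6255). Furin passed in control alone and had 0.01 in AS (adjusted p = 0.956). After DEX, Furin was lower in AS than in control (-0.30, adjusted p = 0.0789, lost in 10 of 33 alternatives).

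Among 27 Trk adaptors, direct partners and relatives of these, 4 rose and 2 fell, with a median of 0.00. Sh2b2 (0.41, adjusted p = 0.00109) and Irs2 (0.36, adjusted p = 0.000407) rose most, and the docking protein Gab1 fell (-0.32, adjusted p = 0.000123). Each of them failed to pass in 1 phenotype. Sh2b2 was at 0.11 in AS (adjusted p = 0.775), Irs2 at 0.25 in control (adjusted p = 0.293) and Gab1 at -0.10 in control (adjusted p = 0.703). Plcg2, a relative of the Trk partner Plcg1, was the gene of this list called in an interaction. Its DEX response was 0.56 in control (adjusted p = 0.00655) and -0.21 in AS (adjusted p = 0.384). The difference was -0.77 (SE 0.17, adjusted p = 0.0785), a call that was lost in 15 of 33 alternatives, with a minimum mean of 100 among them. Sh2b1, the relative of Sh2b2, was lower in PS than in control with saline (-0.21, adjusted p = 0.0386, lost in 2 of 33 alternatives). Of 35 genes of the Ras, MAPK and PI3K relay, 2 rose and 7 fell, with a median of 0.00. The nuclear kinase Rps6ka5 (MSK1) rose in all 3 phenotypes (average 0.49, adjusted p = 2.44e-07), and Akt2 (-0.35, adjusted p = 8.90e-07), Rps6ka1 (-0.31, adjusted p = 0.000188) and Mapk7 (ERK5, -0.30, adjusted p = 0.000483) fell. The Rps6ka1 call was lost in 16 of 33 alternatives in PS, 7 in control and 3 in AS. Mapk7 did not pass in control animals, and its calls in PS and AS were lost in 6 each.

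Among 28 regulators of Bdnf transcription, none rose and 5 fell, where 15.5% of all genes passed in either direction. The list median was -0.04 against 0.00 for all genes. The 5 included both corticosteroid receptors, Nr3c1 (glucocorticoid receptor, -0.39, SE 0.06, adjusted p = 3.04e-05) and Nr3c2 (mineralocorticoid receptor, -0.30, SE 0.05, adjusted p = 0.000177), and the repressor Bhlhe41 (-0.26, adjusted p = 0.000128). Among the single phenotypes, Nr3c1 did not pass in AS and Bhlhe41 did not pass in control. The call of Nr3c2 in AS was lost in 12 of 33 alternatives. Of 23 activity-regulated genes, 6 rose and 2 fell, with a median of 0.09. Arc rose by 0.83 (SE 0.12, adjusted p = 1.78e-05), with 0.37 in control (adjusted p = 0.413), 1.33 in PS (adjusted p = 0.000230) and 0.79 in AS (adjusted p = 0.0213). Dusp5 and Dusp1 rose by 0.46 and 0.29 in the average but, among the single phenotypes, passed in PS alone. In control animals the mean normalized counts with saline and DEX were 264 and 288 for Dusp5 and 486 and 506 for Dusp1. Inhba (-0.73) and the neuronal pentraxin Nptx2 (-0.41, adjusted p = 7.35e-05) fell, like Bdnf, in all 3 phenotypes, although the Nptx2 call in PS was lost in 15 of 33 alternatives. Of 19 genes of dense core vesicle cargo and of other secreted or surface proteins, 3 rose and none fell, with a median of 0.03. Among the 3 were the growth factor Fgf2 (0.41, adjusted p = 0.000514) and, of the vesicle cargo, the granin Chgb (0.11, adjusted p = 0.0358). Fgf2 did not pass in PS, and its call in AS was lost in 13 of 33 alternatives. The DEX response of Chgb was 0.30 in AS and -0.12 in control, a difference of 0.42 (SE 0.08, adjusted p = 0.0711) that was lost in 12 of 33 alternatives, a minimum mean of 100 included.

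**Figure D5:**
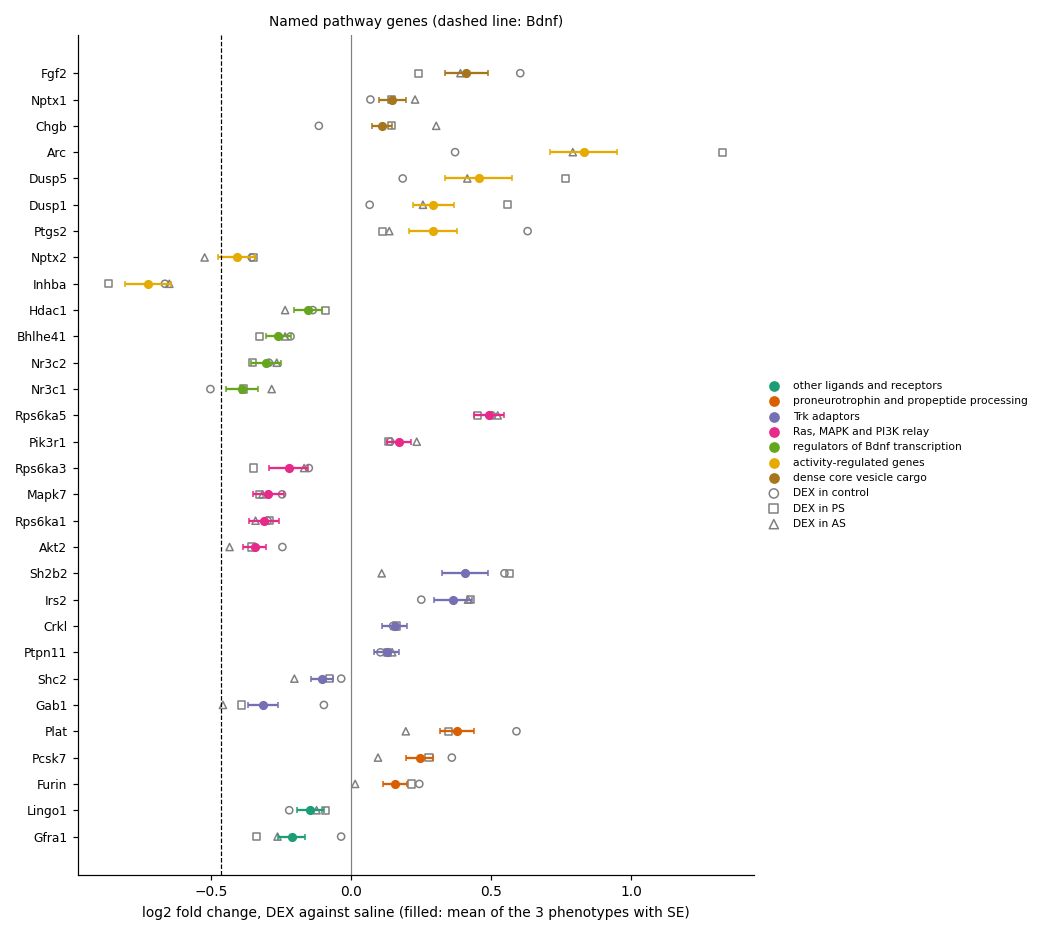
Log2 fold changes of the named genes of 7 pathway lists after DEX, with the mean of the 3 phenotypes and its SE (filled, coloured by list) and the value in control, PS and AS (open circle, square and triangle). The dashed line marks Bdnf at -0.46; Inhba, at -0.73, lies beyond it, and Arc, at 0.83, is the highest.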

How the data were processed

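Poly(A) RNA of the PFC was sequenced as strand-specific paired-end libraries from 24 mice. The authors trimmed reads with fastp 0.20.1, aligned them to mm10 (GRCm38) with HISAT2 2.2.1, assigned them to GENCODE vM22 with featureCounts (Subread 2.0) and normalized them with DESeq2 1.36.0. The deposited values are a signal made by the authors by dividing each gene's count by the size factor of its library, so alignment, counting and scaling are part of every value. Fold changes and p-values deposited in the authors' comparison tables were not used. Whole reads were recovered for 100% of values (tolerance 0.01 read). The main test was limma 3.58.1 (R 4.3.3, trend) on log2(normalized count + 1), with 1 mean for each group, Benjamini-Hochberg adjustment over 14074 genes and an adjusted p under 0.1, in 13 comparisons. This scale understates the fold changes of low genes. Exon lengths came from GENCODE vM21, matched by versioned ID for 13927 genes (98.96%). Groups and mouse numbers came from the labels, and since no number recurs across groups, nothing was paired.

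The members and lists were chosen with earlier results of these data known. Every member was named whatever its result, and list genes were named if they passed in the DEX average (up to 4 by size each way) or in a stress or interaction comparison (up to 2). Genes like Bdnf were the closest by Pearson's r. Alternatives were a pseudocount of 8, a minimum mean of 100, a minimum of 10 reads per library, quantile normalization, only the groups compared, a covariate for library size, count models on recovered reads (quasi-likelihood in edgeR 4.0.16, Wald in DESeq2 1.42.0), leaving out single libraries, and, added after seeing the data, removing together the 4 libraries farthest from their groups. The same alternatives were later applied to the named list genes. The tests were tried on simulated data first.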

Additional observations from a re-analysis of the deposited data

Results flagged for a closer look

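In 42 combinations of a gene and a group of 4 mice, 2 held a mouse whose gap to the nearest other, divided by the range of the group, was above Dixon's 95% critical value, where chance gives about 2.1. Ntrk2 in saline-treated AS mouse 44 was 14270, under the 18260 to 18530 of the other 3 mice (ratio 0.935). Vgf in DEX-treated control mouse 101 was 10540, above the 9760 to 9889 of the other 3 (ratio 0.835). Both mice belong to the 4 libraries farthest from their groups.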

How the results depend on the processing

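The number of the 7 genes called was compared between 33 alternatives and the main test, and no called value reversed its direction. Under stress with saline, 0 genes were called in PS, against 1 by DESeq2 and 1 without the 4 libraries, and 0 in AS, against 1 without the 4 libraries. In the DEX comparisons, control had 1, against 0 in a fit of only the groups compared, and PS had 1, against 2 without the 4 libraries. AS had 1, against 2 in a fit of only the groups compared, by edgeR, by DESeq2 and without the 4 libraries. The DEX average had 2, against 1 with quantile normalization, 1 with library size as a covariate and 4 without the 4 libraries. When single libraries were dropped, the counts ranged from 0 to 1 in control, 0 to 1 in PS, 0 to 2 in AS and 1 to 3 in the average. The cause of these shifts was not tested. In the main test 6.49%, 5.36%, 8.77% and 15.5% of all genes passed in control, PS, AS and the average. The shares of all genes in the alternatives are not set beside these counts. A change in the number called therefore cannot be told apart from a general change in calls. Differences between 2 values that did not pass were counted as unchanged even where the sign differed. No paired analysis was possible because mouse numbers do not recur between groups. Groups of 4 limit the precision, since 4 against 4 cannot give an exact permutation p below 0.0286.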

Other observations

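Vip, a neuropeptide of a class of cortical interneurons and a cargo of dense core vesicles, was higher in PS than in control animals with saline (0.37, SE 0.10, limma adjusted p = 0.0735) and rose after DEX in control animals (0.30, adjusted p = 0.0771), with -0.15 in PS (adjusted p = 0.574). Its call in PS was lost in 6 of 33 alternatives and that in control in 6. The microglial markers Cx3cr1 and P2ry12 fell in the DEX average, 2 of 5 markers where 15.5% of all genes passed, while the other 3 did not pass.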
